A study of Mus musculus with 4 samples.

Results

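The M18.Prlh neurons are the nuclei of the mouse mediobasal hypothalamus that the authors placed in the population named M18.Prlh, after the gene of prolactin-releasing peptide. They numbered 910 of 36523 annotated nuclei, and 910 of the 23261 nuclei that carry any of 37 neuron populations. Membership was taken from the authors' annotation, and the 4 libraries were compared as sums of unique molecular identifier (UMI) counts over member nuclei. The groups were mice given insulin (Insulin, 2 libraries) and mice given saline (Saline, 2 libraries), all kept on chow with food freely available. The labels name no strain, allele, age, dose, route or time after treatment, and they do not say whether a library pools several mice. Nuclei of the dissected hypothalamus were sorted and sequenced with the 10x 3' chemistry, which reads RNA of the nucleus rather than of the whole cell.

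Prlh encodes prolactin-releasing peptide (PrRP), a peptide of the RFamide family that acts mainly on the receptor Prlhr and reduces food intake in rodents. In the hypothalamus PrRP neurons lie chiefly in the dorsomedial nucleus, where some of them carry the leptin receptor and have been tied to the thermogenic and satiety actions of leptin. RFamide peptides share receptors in part, so the receptors Npffr1 and Npffr2 are read beside Prlhr here.

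The Insulin libraries held 187 M18.Prlh nuclei in the sequencing run called A here and 303 in the other, called B, and the Saline libraries held 298 in run A and 122 in run B. Summed UMIs were 1750942 and 2323929 in the Insulin libraries and 2565732 and 1194748 in the Saline libraries, and median UMIs per nucleus ranged from 6999 to 8812.5. The Saline library of run B was thus the shallowest of the sums. Sequencing run coincided with sex. In M18.Prlh nuclei of run A the female transcript Xist had 0 CPM (UMIs of the gene scaled to a common total per library) in the Insulin library and 1.56 CPM in the Saline library, and in those of run B it had 1676 CPM in the Insulin library and 1594 CPM in the Saline library. Of the 910 nuclei, 6 had a barcode sequence that also occurred in another library. The 2 libraries of each treatment differed in sex, so they did not share mice, though the labels do not state this. Every p-value rests on the spread among these 4 libraries. Without a run term, the spread within a treatment includes the difference of run and sex. How much of it lies between mice of the same sex is not known.

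Prlh (ENSMUSG00000090550, GRCm38 chromosome 1, 90953108 to 90954027, plus strand) marked a small minority of the population that carries its name. At least 1 Prlh UMI was found in 30 of 910 M18.Prlh nuclei, a share of 3.30% (exact binomial 95% interval 2.24% to 4.67%), against 31 of 22351 nuclei of the other neuron populations, a share of 0.139%. Median depth was 7801.5 UMIs in M18.Prlh nuclei and 8476 UMIs in the other neurons. When each nucleus was thinned to 2000 UMIs, which left out 4 M18.Prlh nuclei and 210 others, 17 M18.Prlh nuclei kept a Prlh UMI, a share of 1.88%. The share in other neurons was no higher than in oligodendrocytes, a glial type without the peptide, where 7 of 2921 nuclei had a Prlh UMI (0.240%, median depth 2354 UMIs). Further classes lay on both sides of it. Endothelial nuclei were at 0.278% and ependymal nuclei at 1.09%. Astrocytes were at 0.0925%, oligodendrocyte precursors at 0.114% and microglia at 0%. The share in other neurons is read as background, which was not tested. Intervals cover counting error only.

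M18.Prlh nevertheless held 56.7% of all Prlh UMIs of the annotated nuclei, 80 UMIs in all. Prlh was at 11.99 and 15.1 CPM in the Insulin libraries and at 7.02 and 5.02 CPM in the Saline libraries of runs A and B. Each of these values lay above every library of the other populations, among which M33.Glp1r/Ebf1 had the highest mean, 1.11 CPM. Only 16 nuclei held 2 or more Prlh UMIs, and the fullest held 12. In the remaining 880 member nuclei the naming transcript was not detected at this depth, and the population is described below by its annotation and its leading genes.

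**Figure D1:**
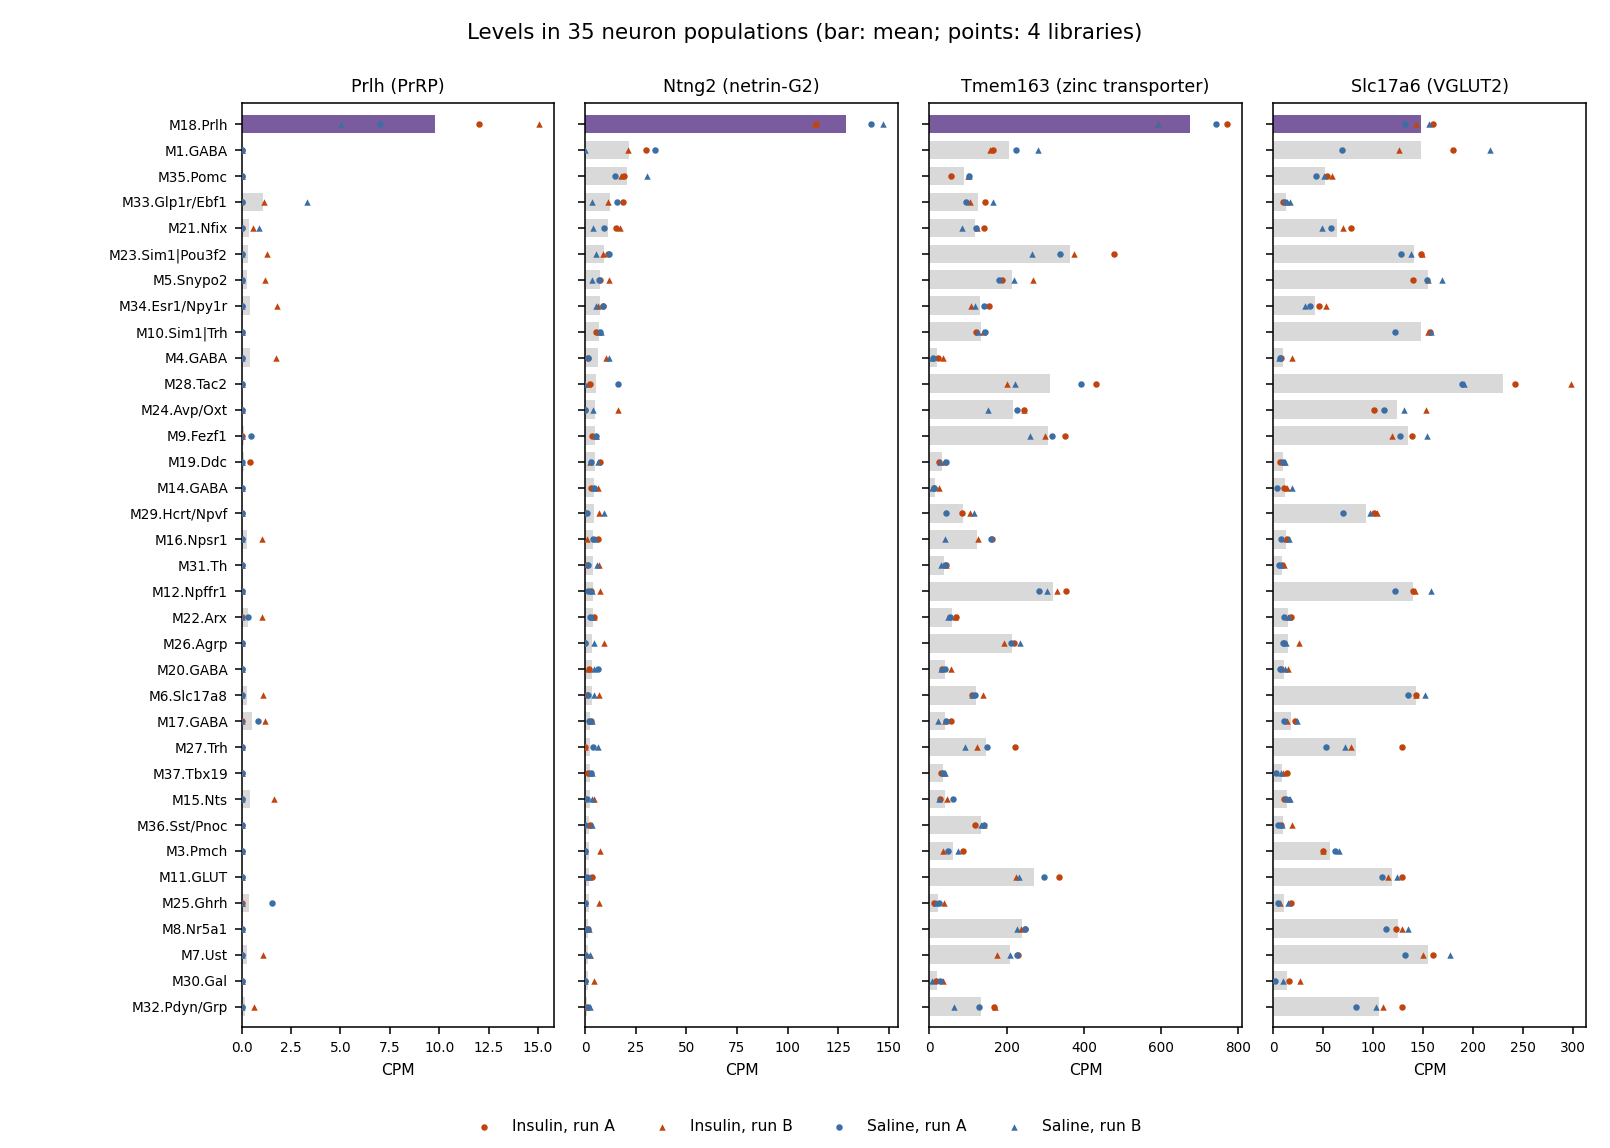
CPM of Prlh, Ntng2, Tmem163 and Slc17a6 in the 35 neuron populations with at least 10 nuclei in every library. Bars are means and points are the 4 libraries, and M18.Prlh is the top row. Prlh, Ntng2 and Tmem163 were higher in each M18.Prlh library than in any library of another population, whereas Slc17a6 was shared with many populations.

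The 30 nuclei with a Prlh UMI carried other transcripts more often than the remaining 880 M18.Prlh nuclei at nearly the same median depth, 7739 and 7801.5 UMIs. The genes were ranked after their values were seen, so these shares are a description without a test. Cartpt, which encodes the appetite-reducing peptide CART, was detected in 19 of the 30 Prlh nuclei (63.3%) and in 17.3% of the others. The shares per library were 60.0% and 66.7% of Prlh nuclei in the Insulin libraries of runs A and B and 54.5% and 100% in the Saline libraries, the last of only 2 nuclei. In every library they exceeded the share of the other M18.Prlh nuclei, which lay between 14.8% and 20%.

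Bdnf, a neurotrophin that lowers food intake when released in the hypothalamus, was found in 66.7% of Prlh nuclei and 16.9% of the others. Met, the receptor of hepatocyte growth factor, was found in 50% and 9.32%. Lepr, the leptin receptor, was found in 43.3% of Prlh nuclei and 11.48% of the others. Summed over nuclei, Lepr reached 121 CPM in the Prlh nuclei (31 UMIs) and 17.0 CPM in the remaining ones. Further receptors were also more frequent, with Npsr1, the neuropeptide S receptor, at 172 CPM in Prlh nuclei and 43.8 CPM in the others, and Hcrtr2, an orexin receptor, at 203 CPM and 41.4 CPM. Slc17a6, which loads glutamate into synaptic vesicles, did not differ in the same way, at 164 CPM in Prlh nuclei and 145 CPM in the others, and Insr, the insulin receptor, was at 102 CPM and 115 CPM. Gad1, which makes GABA, was at 149 CPM in Prlh nuclei and 45.9 CPM in the others and was found in 40% and 25.8% of them, whereas Gad2, its paralogue, was at 27.4 CPM and 43.8 CPM.

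**Figure D2:**
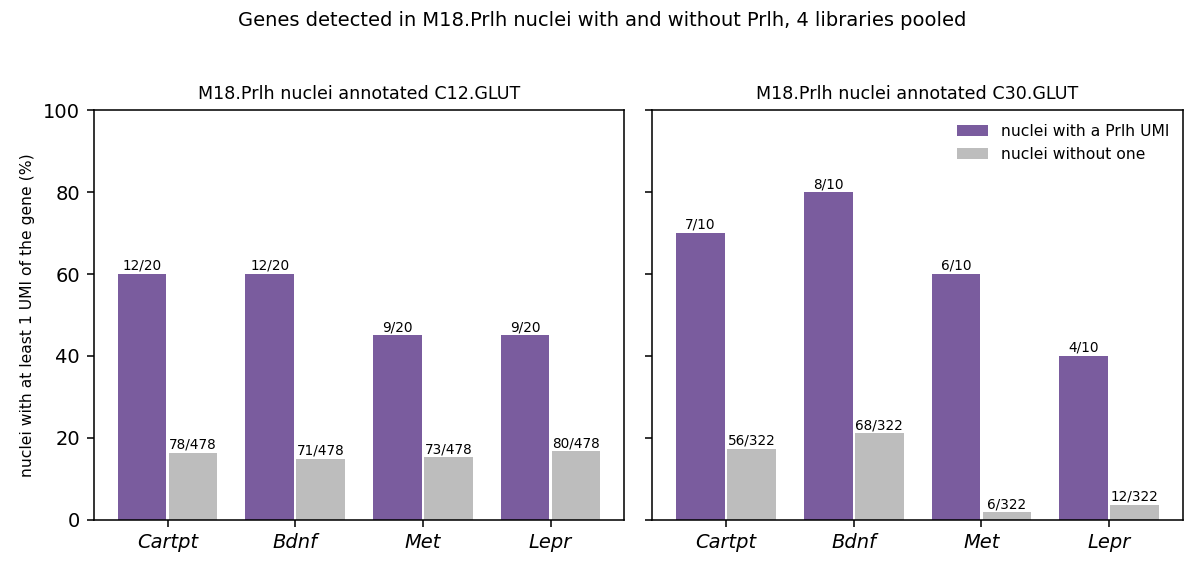
Share of M18.Prlh nuclei with at least 1 UMI of Cartpt, Bdnf, Met or Lepr, with and without a Prlh UMI, in the nuclei that the authors also annotated C12.GLUT (left) and C30.GLUT (right). The 4 libraries are pooled and the fractions above the bars count nuclei. In the pool all 4 genes were more frequent in nuclei with Prlh on both sides. For Met and Lepr few C30.GLUT nuclei without Prlh held the gene, 6 and 12 of 322. Within a subset this did not hold in every library. In the Saline library of run A, Met was found in 0 of 6 Prlh nuclei of C12.GLUT, against 19.7% of the others.

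A further annotation of the authors, their conserved clusters, divided the M18.Prlh nuclei. C12.GLUT held 498 of them (54.7%) and C30.GLUT 332 (36.5%), while 80 lay in 13 other clusters, 49 of these in C27.GLUT. C12.GLUT was almost wholly M18.Prlh, with 498 of its 514 neurons, whereas C30.GLUT had 795 neurons and 41.8% of them were M18.Prlh. Nuclei with Prlh occurred in both, 20 in C12.GLUT and 10 in C30.GLUT, and none of the 80 nuclei elsewhere had one. Prlh levels were alike, at 11.1 CPM in C12.GLUT and 11.6 CPM in C30.GLUT.

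The C12.GLUT and C30.GLUT nuclei of M18.Prlh differed in many genes. Among 10628 genes above 10 CPM in either, 672 (6.32%) had all 4 C12.GLUT libraries above all 4 C30.GLUT libraries and 707 (6.65%) the reverse. Clusters were made from these genes, so the differences describe the 2 subsets and were not tested. Esr2, the oestrogen receptor beta gene, stood at 29.3, 26.8, 28.6 and 48.6 CPM in the C12.GLUT nuclei of the Insulin libraries of runs A and B and the Saline libraries of runs A and B. In C30.GLUT nuclei it lay between 0 and 1.30 CPM, so the subsets did not overlap and the mean ratio was 55.1.

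Other genes of the C12.GLUT nuclei were Lgr5, an R-spondin receptor, with a mean of 46.3 CPM against 2.79 CPM in C30.GLUT, and Onecut3, a homeodomain transcription factor, with 20.1 CPM against 1.71 CPM. Cpne4, a copine, averaged 803 CPM against 93.1 CPM, and Ntng1, the netrin-G1 gene, 1528 CPM against 251 CPM. Nmur2, a neuromedin receptor whose activation reduces feeding, averaged 22.8 CPM against 3.83 CPM. Lepr followed the same side, with 27.2 CPM against 8.70 CPM. The C12.GLUT subset thus held most of the leptin receptor, the oestrogen receptor beta and the netrin-G transcripts of M18.Prlh.

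In C30.GLUT nuclei the leading genes were Crhbp, which binds and restrains corticotropin-releasing hormone, at 34.7 CPM against 0.360 CPM in C12.GLUT, and Tacr1, the substance P receptor, at 61.4 CPM against 2.69 CPM. Hs3st2, a heparan sulfate sulfotransferase, averaged 103 CPM against 4.40 CPM, and Gem, a small GTPase induced by activity, 47.5 CPM against 4.42 CPM. Onecut2, a relative of Onecut3, averaged 17.1 CPM against 2.24 CPM, so these 2 factors were split between the subsets. Il1rapl2, an X-linked synaptic adhesion protein of the interleukin-1 receptor family, averaged 799.8 CPM in C30.GLUT and 69.7 CPM in C12.GLUT. It varied widely among the C30.GLUT nuclei themselves, at 1158 and 965 CPM in the Insulin libraries and 910.0 and 167 CPM in the Saline libraries of runs A and B.

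**Figure D3:**
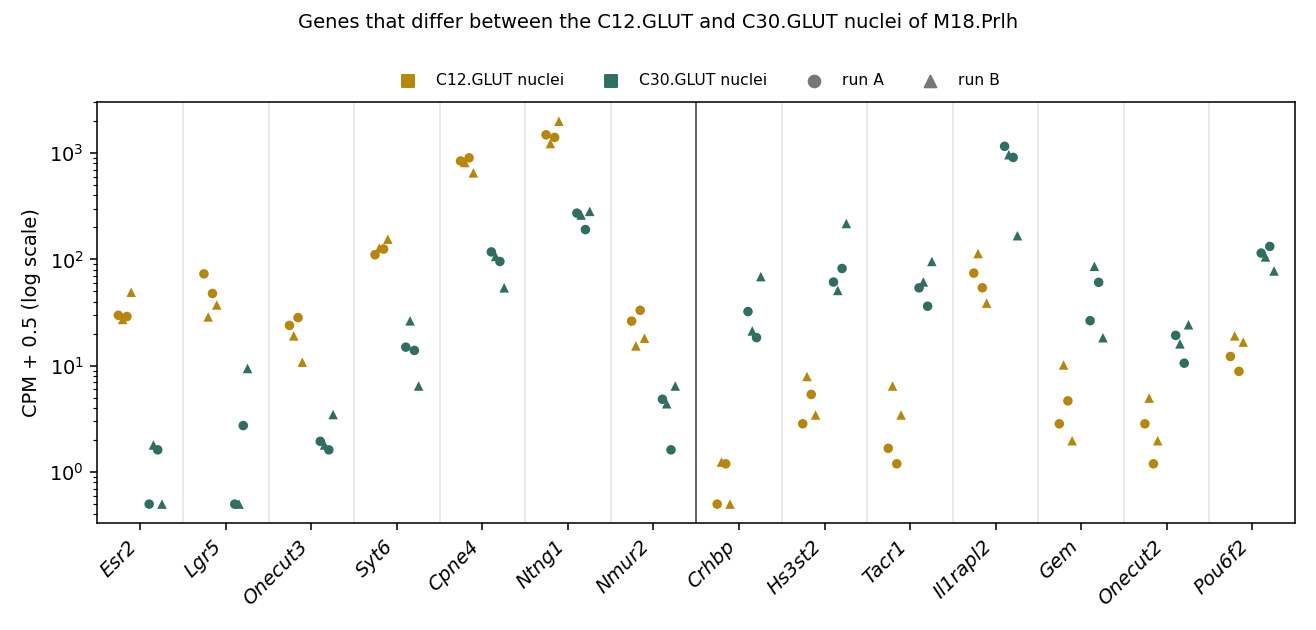
CPM plus 0.5 on a log axis for 14 genes in the C12.GLUT and C30.GLUT nuclei of M18.Prlh. Each point is a library, in the order Insulin run A, Insulin run B, Saline run A, Saline run B. Genes left of the vertical line had all 4 C12.GLUT values above all 4 C30.GLUT values and genes to its right the reverse, and 1 of the C30.GLUT values of Il1rapl2, the Saline library of run B, lay far below the other 3.

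Against the other neuron populations Ntng2 and Tmem163 stood out among the genes higher in M18.Prlh. The comparison took the 34 other populations with at least 10 nuclei in every library and has no test, since the populations were defined by these genes. Of 10149 genes above 10 CPM in M18.Prlh, 48 (0.473%) had their highest mean there. Ntng2, which encodes netrin-G2, a membrane-anchored guidance molecule (chromosome 2, 29194541 to 29253005, minus strand), was at 114 and 114 CPM in the Insulin libraries and 141 and 147 CPM in the Saline libraries. Its mean of 129 ± 17.8 CPM (SD, n = 4 libraries) compared with 5.16 CPM in the mean of the other populations, a log2 difference of 4.52. M1.GABA came next with 21.4 CPM. Ntng2 was detected in 46.4% of M18.Prlh nuclei and 3.45% of other neurons, which places it well ahead of Prlh as a mark of this annotation. It was mainly a gene of the C12.GLUT nuclei, with a mean of 205 CPM there against 39.6 CPM in C30.GLUT. The C30.GLUT values ranged from 5.95 CPM in the Saline library of run B to 58.2 CPM in that of run A.

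Tmem163, a zinc transporter of synaptic vesicles and endosomes (chromosome 1, 127486546 to 127679548, minus strand), was at 770.4 and 591 CPM in the Insulin libraries and 742 and 592 CPM in the Saline libraries. It averaged 674 ± 95.8 CPM against 137 CPM in the other populations and was highest in M18.Prlh, ahead of M23.Sim1|Pou3f2 with 364 CPM. It was the leading gene shared by both subsets, at 655 CPM in C12.GLUT and 798 CPM in C30.GLUT. Met at 19.5 ± 4.41 CPM, the transporter Slc16a12 at 35.5 ± 12.6 CPM, the prostaglandin E receptor Ptger3 at 19.3 ± 5.57 CPM, the neurotensin receptor Ntsr1 at 20.9 ± 3.29 CPM and the leukaemia inhibitory factor receptor Lifr at 58.4 ± 10.9 CPM were also highest in M18.Prlh. Slc16a12 was the only one of these 5 with every M18.Prlh library above every library of another population. By mean, Met was followed by M19.Ddc at 17.7 CPM and Ptger3 by M3.Pmch at 18.3 CPM. Ntsr1 was followed by M29.Hcrt/Npvf at 17.2 CPM and Lifr by M25.Ghrh at 37.4 CPM. Across all other populations, the highest single library was at 69.0 CPM for Met and 25.1 CPM for Ptger3. For Ntsr1 it was at 23.1 CPM and for Lifr at 53.8 CPM. The first place in the order is not firm for these 4. All 5 genes were higher in every C12.GLUT library than in any C30.GLUT library. Slc16a12 averaged 59.0 CPM in C12.GLUT against 7.05 CPM in C30.GLUT, and Met 30.8 CPM against 7.10 CPM. Ptger3 averaged 28.5 CPM against 7.37 CPM, and Ntsr1 27.7 CPM against 11.2 CPM. Lifr averaged 91.6 CPM against 18.8 CPM, the latter close to the 19.2 CPM of the other populations.

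Several strong genes were shared with few other populations. Chrm3, a muscarinic acetylcholine receptor, averaged 899.8 ± 95.9 CPM and was second to M5.Snypo2 with 914 CPM, a difference smaller than the spread between libraries. Lef1, a Wnt pathway transcription factor, averaged 90.3 ± 17.9 CPM, rank 4, M3.Pmch being the highest. Synpr, a synaptic vesicle protein, averaged 348 ± 19.4 CPM, Tac1, the substance P precursor, 102 ± 25.5 CPM and Bdnf 52.3 ± 11.8 CPM, against 96.4, 35.9 and 14.7 CPM in the other populations. Nos1, which makes nitric oxide, was steady at 65.1 and 71.0 CPM in the Insulin libraries and 74.1 and 72.0 CPM in the Saline libraries, against 23.8 CPM elsewhere. In C12.GLUT and C30.GLUT nuclei Lef1 averaged 151 and 17.6 CPM, Synpr 543 and 96.8 CPM, and Nos1 110 and 20.9 CPM. The C30.GLUT levels of Lef1, Synpr and Nos1 thus lay near the mean of the other populations. Chrm3 was also higher in C12.GLUT, at 1216 CPM against 514 CPM, whereas Tac1 and Bdnf overlapped between the subsets.

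Genes low in M18.Prlh included the patterning factors Lmo3, at 19.2 CPM against 91.2 CPM in the mean of the other populations (rank 31 of 35), Zfp536, at 17.9 CPM against 83.3 CPM (rank 31), and Pbx3, at 38.99 CPM against 143 CPM (rank 30). Nfib (14.3 CPM against 69.7 CPM, rank 23) and the forebrain GABA lineage transcript Dlx6os1 (6.43 CPM against 61.6 CPM, rank 25) also lay under the mean. Ebf1 was under the mean of the others, 10.8 CPM against 55.0 CPM, but above their median of 5.58 CPM, rank 10 of 35, since that mean rests on M33.Glp1r/Ebf1 at 1208 CPM. Esr1, the oestrogen receptor alpha gene, averaged 27.8 ± 9.94 CPM against 105 CPM, rank 28 of 35. Esr2 had the reverse standing, 18.9 ± 6.48 CPM against 5.21 CPM, rank 2 after the magnocellular M24.Avp/Oxt. The growth hormone receptor Ghr averaged 125 CPM against 416 CPM, rank 30 of 35. Single populations raise several of these means, such as M26.Agrp at 3089 CPM for Ghr and M28.Tac2 at 952 CPM for Esr1. The median of the other populations was 235 CPM for Ghr and 44.9 CPM for Esr1. It was 23.6 CPM for Nfib and 10.96 CPM for Dlx6os1, so M18.Prlh lay less far under a typical population.

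By transmitter genes M18.Prlh was mainly glutamatergic. Slc17a6 was at 160 and 143 CPM in the Insulin libraries and 132 and 157 CPM in the Saline libraries, a mean of 148 ± 12.8 CPM against 71.7 CPM in the other populations, rank 6 of 35. The GABA genes Slc32a1 at 10.9 ± 5.93 CPM and Gad2 at 45.9 ± 16.9 CPM compared with 32.8 CPM and 137 CPM elsewhere, and Gad1 was at 49.9 ± 5.17 CPM against 59.9 CPM. A Slc17a6 UMI was seen in 62.2% of M18.Prlh nuclei, against 65.7% in M23.Sim1|Pou3f2 (median depth 8329 UMIs) and 8.21% in the GABAergic M16.Npsr1 (median depth 8856 UMIs). Gad2 was seen in 20.5% of M18.Prlh nuclei, close to the 19.7% of M23.Sim1|Pou3f2 and far from the 88.5% of M16.Npsr1. Slc32a1 was seen in 8.57%, against 8.83% in M23.Sim1|Pou3f2, so the shares of both genes are read as background. Gad1 was seen in 26.3% of M18.Prlh nuclei, against 9.01% in M23.Sim1|Pou3f2 and 64.1% in M16.Npsr1. Slc17a6 without Slc32a1 or Gad2 was found in 47.8% of M18.Prlh nuclei, both kinds together in 14.4%, and Slc32a1 or Gad2 alone in 10.9%. The last share was 14.2% of C30.GLUT nuclei and 7.23% of C12.GLUT nuclei, and it includes that background.

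The nearest population over the 2000 most variable genes was M16.Npsr1, with a Pearson correlation of 0.27 across genes, followed by M17.GABA with 0.20 and M23.Sim1|Pou3f2 with 0.16. Genes are not independent replicates and the values share the same 4 libraries. The first 2 of these are GABAergic and differ from M18.Prlh in transmitter genes, with Gad2 at 352 and 294 CPM. They shared Lef1 with it, at 161 CPM in M16.Npsr1 and 139 CPM in M17.GABA.

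The gene lists, read against the populations, put M18.Prlh near the middle for most systems. A gene was counted as high when its lowest M18.Prlh library exceeded the highest library of the median population, which 516 of 10503 genes did (4.91%). That share covers genes above 10 CPM in M18.Prlh or in the mean of the others, whereas the list counts below take every member measured. Of 10 PrRP and RFamide genes, 3 were high: Prlh, Npffr2 and Npffr1. Prlh, with a mean of 9.77 CPM, lies outside the genes of that share, and it names the population. Npffr2, a receptor for neuropeptide FF that also binds PrRP, ranged from 8.57 to 35.2 CPM over the libraries with a mean of 20.7 CPM, rank 2 after M26.Agrp, and lay mostly in C12.GLUT (30.8 CPM, against 7.89 CPM in C30.GLUT). Prlhr had 2 UMIs in M18.Prlh and averaged 0.187 CPM in the other populations, so the main PrRP receptor was close to absent from these neurons at this depth.

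Among hormone and peptide receptors 13 of 71 were high, led by Ptger3, Chrm3, Ntsr1 and Esr2, and 2 were at 0 UMIs, Gcgr, the glucagon receptor, and Glp1r, the target of glucagon-like peptide drugs. Lepr was at 15.4 and 21.5 CPM in the Insulin libraries and 24.2 and 17.6 CPM in the Saline libraries. Its mean of 19.7 CPM was rank 10 of 35, beneath an average of the other populations of 43.5 CPM that rests on M26.Agrp, at 473 CPM. Of 73 patterning transcription factors 9 were high, among them Lef1, Onecut3, Rorb, and the homeobox genes Hmx2 and Hmx3 at 16.9 ± 4.37 and 12.9 ± 2.72 CPM. A further 6 factors of that list had 0 UMIs. Of 52 genes of insulin signalling 4 were high, none beyond a log2 difference of 0.50. Insr averaged 115 ± 5.15 CPM against 120 CPM in the other populations, rank 21 of 35, and Irs2 37.9 ± 4.48 CPM against 34.5 CPM. M18.Prlh therefore held an ordinary level of the insulin receptor and of its substrate.

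The share of M18.Prlh among neurons was compared between treatments because a change in it would alter what the summed counts represent. It was 3.43% and 4.95% in the Insulin libraries of runs A and B and 4.68% and 2.29% in the Saline libraries. The groups overlapped and the order of the treatments differed between runs, and the means of 4.19% and 3.49% did not separate in a two-sided exact permutation test (p = 0.667; the smallest p for 2 against 2 libraries is 0.3333). Leaving out the Insulin library of run B or the Saline library of run B turned the difference round. The C30.GLUT part of the population was 41.7% and 34.98% in the Insulin libraries and 37.6% and 29.5% in the Saline libraries, higher in Insulin within each run, with overlap between the groups.

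Insulin and Saline libraries were then compared gene by gene. No gene passed in M18.Prlh by edgeR's quasi-likelihood test after adjustment over all genes (Benjamini-Hochberg), 0 of 12489 tested (0%), with 300 genes at an unadjusted p under 0.05 and a smallest adjusted p of 0.999. DESeq2 called 0 genes (52 under 0.05 unadjusted) and limma-voom 0 (383). Both Insulin libraries lay above both Saline libraries for 15.2% of genes and below them for 13.1%. With the sequencing run as a replicate block, 4 genes passed (0.032%), 2 higher and 2 lower in Insulin, namely Il1rapl2 and Penk on the higher side and Meis2 and the predicted gene A330015K06Rik on the lower. Without a filter on low counts 6 genes passed. The count was 0 without the Insulin library of run A, 9 without the Insulin library of run B, 6 without the Saline library of run A and 33 without the Saline library of run B, fits in which the lone library of a group is assumed to vary like the other group.

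Prlh itself averaged 13.5 ± 2.17 CPM in Insulin and 6.02 ± 1.41 CPM in Saline (SD, n = 2 libraries each). Both Insulin values lay above both Saline values, and the log2 difference was 1.08 (SE 0.40, edgeR adjusted p = 0.999, and 0.494 with the run block). The 2 groups rest on 17 and 13 nuclei with a Prlh UMI, so single nuclei weigh heavily. In the Insulin library of run B, 3 nuclei gave 23 of its 35 Prlh UMIs.

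Immediate early genes, which neurons transcribe within minutes of strong stimulation, were mostly higher in Insulin libraries without passing the test. Fos (chromosome 12, 85473890 to 85477273, plus strand) was at 10.9 and 19.8 CPM in the Insulin libraries and 4.29 and 5.86 CPM in the Saline libraries, a log2 difference of 1.63 (SE 0.46, edgeR adjusted p = 0.999). Junb was at 13.7 and 35.7 CPM in Insulin and 10.9 and 8.37 CPM in Saline, and Btg2, an antiproliferative early gene, at 13.7 and 30.6 CPM and at 12.9 and 9.21 CPM. For each of these genes the Insulin library of run B was the highest of the 4. Of the 13 early genes tested of 25 measured, 12 had a positive log2 difference, beside 6352 of all 12489 genes tested. Both Insulin libraries lay above both Saline libraries for 5 of the 13, beside 15.2% of all genes, and 0 passed. Their median log2 difference was 0.21 in run A and 1.49 in run B. Over the 4 libraries the median was 0.45, beside 0.01 over all genes tested. That median was 0.73 without the Insulin library of run A, 0.27 without the Insulin library of run B and 1.32 without the Saline library of run A.

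The summed level of all 25 early genes was 274 and 384 CPM in the Insulin libraries and 236 and 224 CPM in the Saline libraries of M18.Prlh (two-sided exact permutation p = 0.3333, the smallest that 4 libraries allow). The difference of means, 98.6 CPM, was 154 CPM without the Insulin library of run A and 43.5 CPM without that of run B. The sum was higher in C30.GLUT nuclei, at 399 and 706 CPM in Insulin and 370 and 402 CPM in Saline, than in C12.GLUT nuclei, at 198 and 219 CPM and at 164 and 137 CPM. The other neuron populations summed together showed 218 and 287 CPM in Insulin and 161 and 182 CPM in Saline. The early genes thus stood higher in Insulin in both M18.Prlh and the rest of the neurons, and none of them had a change that differed between the 2 by the interaction test described below.

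**Figure D4:**
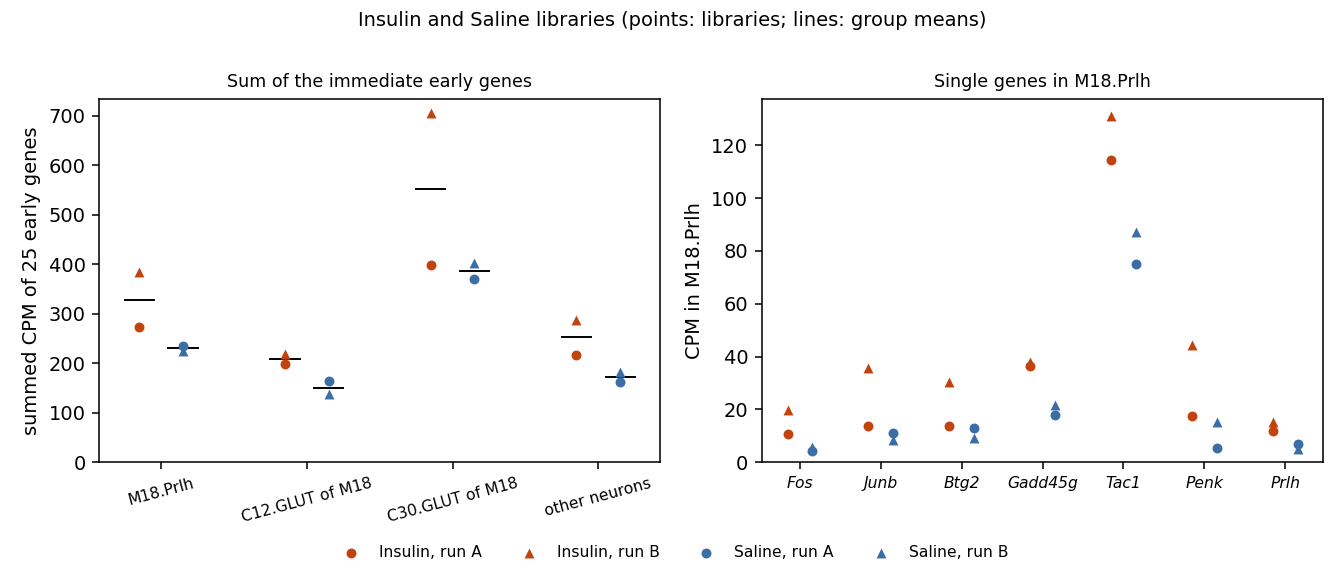
Left, summed CPM of the 25 immediate early genes in M18.Prlh, in its C12.GLUT and C30.GLUT nuclei and in the other neuron populations. Right, CPM of single genes in M18.Prlh. Points are libraries, Insulin left of Saline, and lines on the left are group means. Both Insulin values of the sum lay above both Saline values in 3 of the 4 sets and overlapped in C30.GLUT.

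The genes of smallest p that were higher in Insulin in both runs were Dbi, Gadd45g, Tac1, Fos, Cisd3, Atp5o.1, Ebp and Srsf1. Dbi, which encodes the acyl-CoA binding protein, was at 26.3 and 29.7 CPM in Insulin and 10.5 and 14.2 CPM in Saline, and Tac1 was at 114 and 131 CPM in Insulin and 75.2 and 87.0 CPM in Saline. On the lower side were Spon1, Meis2, Chn2, Pde8a, Atxn7l1os1, Sox5os4, L3mbtl4 and Ltbp1. Pde8a, a cyclic AMP phosphodiesterase, was at 11.4 and 9.04 CPM in Insulin and 23.0 and 21.8 CPM in Saline. All 16 were separated between groups, and the adjusted p of each was 0.999 (edgeR). Such sets arise from sorting by p and are a description.

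Of 24 peptide genes tested in M18.Prlh 15 were higher and 9 lower in Insulin, with a median log2 difference of 0.15, and 0 passed without the run block. The runs went opposite ways, with a median of 0.46 in run A and -0.19 in run B. The summed level of the list was 1369 and 1413 CPM in Insulin and 983 and 1592 CPM in Saline, so the groups overlapped. Penk, the enkephalin precursor, was at 17.7 and 44.3 CPM in Insulin and 5.46 and 15.1 CPM in Saline, so the groups did not overlap, though by a small margin. Its log2 difference was 1.75 (SE 0.56, edgeR adjusted p = 0.999) and passed with the run block (1.60, adjusted p = 0.0467). Only 73 nuclei held a Penk UMI, 69.9% of its UMIs were in C30.GLUT nuclei, and 3 nuclei supplied 76.7% of them in the Insulin library of run B. Cartpt was at 64.5 and 49.9 CPM in Insulin and 43.7 and 32.6 CPM in Saline (log2 0.53, edgeR adjusted p = 0.999).

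Of 44 genes of insulin signalling tested 22 were higher and 22 lower in Insulin, 0 passed and the median log2 difference was 0.00. Both Insulin libraries lay above both Saline libraries for 5 of them and below for 10, beside 15.2% and 13.1% of all genes. Insr was at 121 and 109 CPM in Insulin and 117 and 112 CPM in Saline, and Irs2, whose transcription FoxO factors promote, at 42.8 and 34.9 CPM and at 40.5 and 33.5 CPM. The FoxO factors Foxo1 and Foxo3 were lower in Insulin in each run, Foxo1 at 9.71 and 14.6 CPM against 22.2 and 17.6 CPM in Saline. The log2 difference of Foxo1 did not pass (-0.74, SE 0.35, edgeR adjusted p = 0.999). Of the 44 genes, 0 had an unadjusted p under 0.05 by that test. Of 52 hormone and peptide receptors tested 28 were higher and 24 lower, and 0 passed. Cnr1, the cannabinoid receptor, was at 85.7 and 93.8 CPM in Insulin and 58.9 and 63.6 CPM in Saline, whereas Lepr overlapped between the groups (log2 -0.22, SE 0.32). Of 44 channel genes tested 21 were higher and 23 lower, and of 20 genes of peptide processing 14 were higher and 6 lower, again with 0 passed, and with a median of 0.35 in run A and -0.064 in run B.

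Markers of other cells were read beside these values. Summed over 8 astrocyte markers, M18.Prlh held 94.2 and 106 CPM in Insulin and 65.1 and 94.6 CPM in Saline, and over 8 microglial markers 135 and 92.1 CPM in Insulin and 182 and 105 CPM in Saline. The sums of 8 oligodendrocyte markers (148 and 127 CPM in Insulin, 103 and 130 CPM in Saline) and of 29 markers of other neuron populations (520.3 and 601 CPM in Insulin, 424 and 705 CPM in Saline) overlapped between groups. Of all these markers 0 passed the test. The sums of oligodendrocyte precursor, endothelial, mural and ependymal or tanycyte markers overlapped as well, at no more than 127 CPM in any library. Among 7 mural markers Rgs5 and Kcnj8 had 0 UMIs. The part of such RNA in the differences above was not tested.

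Whether M18.Prlh responded differently from the remaining neurons was tested with an interaction term that keeps each library as its own baseline. By edgeR's quasi-likelihood test 16 of 19492 genes passed (0.0821%), 11 with a higher change in M18.Prlh (0.0564%) and 5 with a lower one (0.0257%), and 6 of the 16 are predicted genes. DESeq2 called 0 of them, with 148 genes at an unadjusted p under 0.05, and edgeR called 0 when only the 12489 genes that pass the filter in M18.Prlh were tested. The 16 calls thus did not hold in either of these alternatives. The count was 10 without the Insulin library of run A, 8 without the Insulin library of run B, 88 without the Saline library of run A and 3 without the Saline library of run B.

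Il1rapl2 (chromosome X, 137570608 to 138846946, plus strand) had the smallest p. It was at 517 and 391 CPM in the Insulin libraries and 381 and 82.0 CPM in the Saline libraries of M18.Prlh. The 3 values above 380 CPM stood together and the Saline library of run B stood far below them. The other populations had 520 and 486 CPM in Insulin and 553 and 306 CPM in Saline, with the same library lowest. The change differed by 0.80 on the log2 scale (SE 0.11, edgeR adjusted p = 2.33e-09), and without the Saline library of run B by 0.34 (adjusted p = 0.767). C30.GLUT nuclei, which held 83.5% of the Il1rapl2 UMIs, were also the scarcest in that library, 36 of 122 nuclei. Within C30.GLUT the gene was lowest in the same library, at 167 CPM, and the change differed from that of the other populations by 0.91 (edgeR adjusted p = 0.00192). That fit includes the same low library, and the part of the subset shares in the difference was not tested.

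Cntnap5b, a neurexin-family adhesion gene, was at 377 and 301 CPM in Insulin and 241 and 200.04 CPM in Saline, where the groups did not overlap, while the other populations had 505 and 417 CPM in Insulin and 474 and 435 CPM in Saline. The change differed by 0.60 (SE 0.11, edgeR adjusted p = 0.000297; 0.122 without the Saline library of run B). Gpc5, a glypican, was at 229.6 and 213 CPM in Insulin and 175 and 154 CPM in Saline. In the other populations it was lower in Insulin within each run, at 463 and 339 CPM against 486 and 402 CPM, but the groups overlapped. Its change differed by 0.61 (SE 0.11, adjusted p = 0.000427) and, alone among the 16, it still passed without the Saline library of run B (adjusted p = 0.0170). It did not pass without the Insulin library of run B (adjusted p = 0.969).

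Meis2, a homeobox factor of GABAergic lineages, was lower in Insulin, at 0 and 1.72 CPM against 6.24 and 27.6 CPM in Saline. These values rest on 53 UMIs in 14 nuclei, 5 of which held 83.0%, and 56.6% of the UMIs came from the 80 nuclei outside C12.GLUT and C30.GLUT. The other populations were also lower in Insulin, at 34.2 and 29.8 CPM against 44.2 and 66.7 CPM in Saline. The change differed by -3.03 (SE 0.56, edgeR adjusted p = 0.000427), and with C12.GLUT and C30.GLUT nuclei alone by -1.69 (adjusted p = 1.00). The run block gave -4.18 within M18.Prlh (adjusted p = 0.00432).

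Spon1, an extracellular matrix protein of axon guidance, was lower in Insulin, at 104 and 96.8 CPM against 138 and 175 CPM in Saline, and overlapped in the other populations. The change differed by -0.58 (SE 0.12, edgeR adjusted p = 0.00768). C12.GLUT nuclei held 85.1% of the Spon1 UMIs, and in C30.GLUT nuclei the difference was 0.10 (adjusted p = 1.00). The change of Satl1 also passed, with 0 UMIs in both Insulin libraries and 11 and 8 UMIs in the Saline libraries, too few for a fold.

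Hs6st3, which sulfates heparan sulfate, the metabotropic glutamate receptor Grm8, the receptor tyrosine kinase Alk and the potassium channel subunit Kcnmb2 passed with a higher change in M18.Prlh. Hs6st3 was at 779 and 557 CPM in Insulin and 649 and 364 CPM in Saline, and Grm8 at 893 and 910 CPM and at 932 and 480 CPM. Insulin and Saline libraries overlapped for Hs6st3, Grm8 and Alk, with the Saline library of run B lowest in each. Without that library the differences were 0.26, 0.22, 0.14 and 0.42 for Hs6st3, Grm8, Alk and Kcnmb2, against 0.51, 0.47, 0.45 and 0.73 with it, and none passed (edgeR adjusted p = 1.00 each). Kcnmb2 was the scarcest of these, at 65.7 and 46.0 CPM in Insulin and 42.5 and 20.9 CPM in Saline, and within C12.GLUT nuclei its difference was -0.13.

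**Figure D5:**
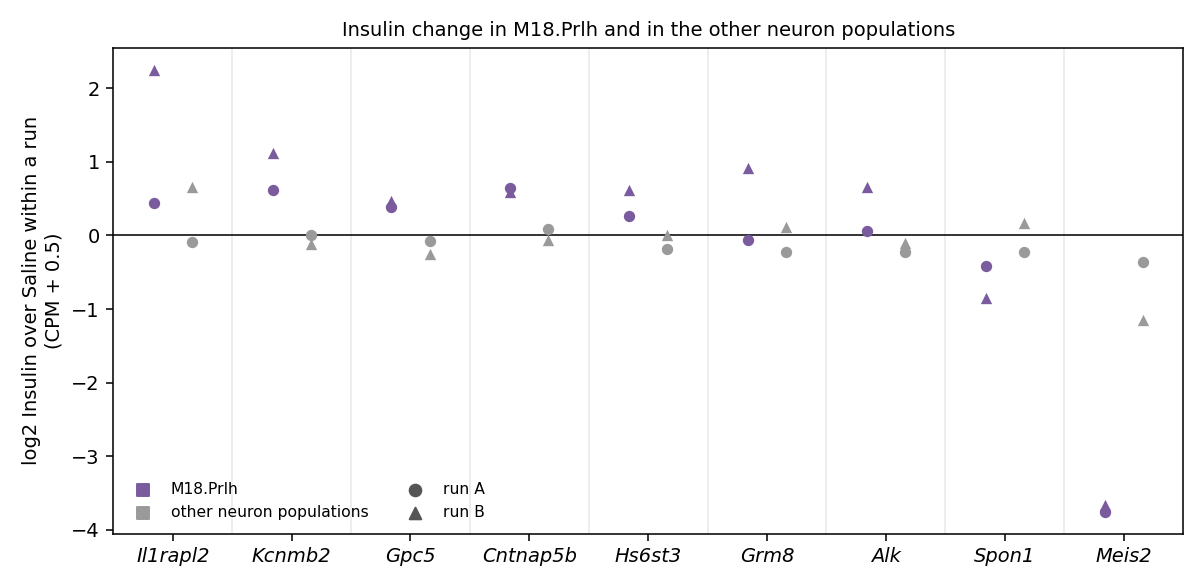
Log2 ratio of Insulin over Saline within each sequencing run, on CPM plus 0.5, for 9 genes whose change differed between M18.Prlh and the other neuron populations. Circles are run A and triangles run B, M18.Prlh in purple and the others in grey. Cntnap5b and Gpc5 in M18.Prlh were alike in both runs, whereas for Il1rapl2 and Grm8 the difference lay mainly in run B.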

How the data were processed

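Single-nucleus RNA of the mediobasal hypothalamus was measured in 4 libraries. The deposited values are UMI counts per gene and nucleus, made by the authors with Cell Ranger on GRCm38 per the submitters' processing notes; its version is not given in the sources used here. The matrix held 31053 gene symbols and 41156 barcodes, and the deposited annotation listed 36534 nuclei, of which 11 had no barcode in the matrix. Populations, conserved clusters, treatment and sequencing run came from that table. The authors' annotation marks 423 nuclei as doublets, none of them in M18.Prlh, and no further nuclei were removed. The table's library names could not be matched to the replicate numbers of the labels, so libraries are named by treatment and by sequencing run, A or B.

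Counts were summed over nuclei per library. Genes passed edgeR's filterByExpr (minimum count 10, minimum total 15) and were tested with edgeR 4.0.16 (quasi-likelihood, treatment only, Benjamini-Hochberg adjustment, threshold 0.05), with DESeq2 1.42.0, limma 3.58.1, run blocks, other scaling and filters, and omitted libraries as alternatives. R 4.3.3, Python 3.11.15, numpy 2.4.6, scipy 1.17.1 and pandas 2.3.3 were used. Deviations of libraries of the same run from their group means correlated at 0.44 over 12489 genes, which is in the data and not stated as a pairing by the labels. CPM are counts scaled to a common total of UMIs of the nuclei summed; ratios within runs used CPM plus 0.5.

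Named genes were those called, the 8 of smallest p in each direction moving alike in both runs, the members of smallest p of each list, and, for the population, 25 genes of highest fold and 10 of lowest, without predicted genes. Genes of the Prlh nuclei and of C12.GLUT and C30.GLUT were named after their values were seen. Members and the 18 gene lists were chosen with earlier results of these data known.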

Additional observations from a re-analysis of the deposited data

Results flagged for a closer look

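For 10 named genes the change between Insulin and Saline differed between M18.Prlh and the sum of the other neuron populations by the interaction test (edgeR, log2 scale). The differences were 0.80 for Il1rapl2, 0.60 for Cntnap5b, 0.61 for Gpc5, 0.51 for Hs6st3, 0.47 for Grm8, 0.45 for Alk and 0.73 for Kcnmb2, a higher change in M18.Prlh, and -3.03 for Meis2, -0.58 for Spon1 and -9.86 for Satl1, a lower one. The Satl1 value is fitted against 0 UMIs in the Insulin libraries, depends on the prior count and is no fold. DESeq2 called none of these genes. The part of sequencing run, which coincides with sex, was not tested beyond the run term, with which 14 genes passed, 12 of them among the 16.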

How the results depend on the processing

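The number of genes called between Insulin and Saline, 0, became 6 without a filter on low counts and 4 with the run as a replicate block, and lay between 0 and 33 when a library was left out. The 16 genes whose change differed between M18.Prlh and the other populations became 0 with DESeq2, 25 with RLE scaling, 0 over genes that pass the filter in M18.Prlh alone, and 3 to 88 with a library left out. The difference in the share of neurons lay between -0.49 and 1.90 percentage points with a library left out and was -0.051 without the Insulin library of run B. Against the median in place of the mean of the populations, the log2 difference was 4.98 for Ntng2, 4.34 for Met and 2.43 for Tmem163, and it was 2.32 for Met after thinning. The causes were not tested.

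In C30.GLUT nuclei alone the sign was turned for Spon1 (0.028, and 0.10 for its difference from the other populations), Chn2 (0.87), Qrfpr (0.68), Nos1 (0.39), Slc18a2 (0.56) and Grm8 (-0.031). In C12.GLUT nuclei it was turned for Irs2 (-0.094) and Kcnmb2 (-0.19, and -0.13 for its difference), and with limma-voom for Irs2 (-0.016). With a library left out the log2 difference ranged from -0.20 to 0.92 for Alk, -0.10 to 0.61 for Chgb, -0.79 to 0.055 for Gad2, -0.11 to 0.94 for Grm8, -0.02 to 0.91 for Hs6st3, -0.11 to 0.079 for Insr, -0.14 to 0.235 for Irs2, -0.47 to 0.11 for Lepr, -1.11 to 0.41 for Qrfpr and -0.52 to 0.17 for Slc18a2. Of the other values for named genes without omitted libraries, 588 kept direction and side of the threshold, 34 no longer passed and 7 newly passed. No gene passed between Insulin and Saline in the main fit, so values of that comparison could not cease to pass. All 34 losses were among the genes called by the interaction test, and the 7 gains were between Insulin and Saline. The 588 pool both comparisons and do not show how firm the interaction calls were. With 2 libraries a group, 2 residual degrees of freedom remain (1 with the run block), and the depth of the Saline library of run B limits genes of low count.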
